A study of Mus musculus with 16 samples.

Results

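Nuclei with *Adarb2* and with *Gad1* or *Gad2*, the enzymes of GABA synthesis, were followed in the mouse hippocampus. Nuclei were taken from all 16 libraries when they held 1000 to 7000 genes, at most 5% mitochondrial unique molecular identifiers (UMIs, counted RNA molecules), at least 2 UMIs of *Gad1* and *Gad2* together and at least 3 UMIs of *Adarb2*. They also had to hold no *Lhx6*, at most 1 UMI of *Sst*, and none of *Slc17a7*, *Mog*, *Pdgfra* or *Csf1r*, the markers of excitatory neurons, oligodendrocytes, their precursors and microglia. These limits were met by 2755 of 155084 barcodes, or of 129802 barcodes within the limits on genes and mitochondrial UMIs. Each library gave 119 to 266 of these nuclei, and no barcode was chosen in more than 1 library.

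The libraries came from male mice and held nuclei, sorted on a DNA stain, from the hippocampus of the right hemisphere. The labels do not say whether each library is 1 mouse, so the spread between libraries may be partly technical. Wild-type (WT) mice were C57BL/6 and 2 months and 23 days old. *Ifnar1*-/- (KO) mice, which lack a chain of the type I interferon receptor, were 3 months and 3 days old. DMXAA, which activates mouse STING, or vehicle was injected repeatedly into the peritoneum, and each genotype has 4 libraries per treatment. Both the deletion and the drug reached the whole animal, so neither was limited to interneurons, and age and cohort cannot be told apart from genotype.

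Cortical and hippocampal interneurons arise mainly from the medial and the caudal ganglionic eminence. *Lhx6* marks the medial class, with the parvalbumin and somatostatin cells. *Adarb2* and *Prox1* mark the caudal class, with cells that release vasoactive intestinal peptide (*Vip*), neurogliaform cells (*Lamp5*, *Ndnf*, *Reln*) and basket cells rich in cholecystokinin and the cannabinoid receptor CB1 (*Cck*, *Cnr1*). Neurogliaform and basket cells inhibit pyramidal cells, and many *Vip* cells inhibit other interneurons. Type I interferon acts through its receptor, of which IFNAR1 is a subunit, to switch on interferon-stimulated genes (ISGs).

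The nuclei were not uniform in the genes that mark interneurons. *Dlx6os1*, a noncoding RNA of the interneuron lineage on chromosome 6 (6820189 to 6871592, minus strand, GRCm38), was found in 2060 of the 2755 nuclei (74.8%) and absent from 695. Among excitatory nuclei 1.02% held a UMI of it. It is not a marker of the caudal class alone: 59.9% of *Lhx6* interneurons held 2 UMIs or more, against 67.1% of the *Adarb2*-positive nuclei. Median UMIs per nucleus were 9512 in nuclei with *Dlx6os1* and 8845 in those without, so the nuclei without it were not markedly shallower. Nuclei with *Dlx6os1* held *Adarb2* at 16616 CPM (UMIs scaled to a sum of 1000000), *Gad2* at 443, *Cnr1* at 673, *Erbb4* at 8239 and *Vip* at 217 CPM. Nuclei without it held 3715, 178, 51.4, 1431 and 30.1 CPM of the same genes. *Prox1* was at 106 CPM with *Dlx6os1* and 175 CPM without it, but it is not specific to the caudal class in the hippocampus: 13.1% of excitatory nuclei held 2 UMIs or more, against 29.7% of the *Adarb2*-positive nuclei. Also higher without it were *Slit3* at 1689 CPM (138 with *Dlx6os1*), *Tafa1* at 1026 (111), *Glis3* at 597 (31.0), *Zfhx3* at 369 (29.5) and *Otx2os1* at 336 (7.30). *Slc32a1*, the vesicular GABA transporter, was at 55.1 CPM with *Dlx6os1* and 36.04 CPM without it. The label of caudal interneurons was therefore not used for the whole set, which is called *Adarb2*-positive nuclei after the way it was chosen, and results are also given for the *Dlx6os1*-positive nuclei alone.

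The share of nuclei with *Dlx6os1* varied between libraries and groups. It was 85.0% ± 4.34 (SD, n = 4) in WT vehicle, 80.3% ± 8.01 in WT DMXAA, 65.3% ± 9.48 in KO vehicle and, with DMXAA in KO mice, 69.3% ± 7.54. The lowest WT vehicle library stood at 80.8% and the highest KO vehicle library at 70.6%, so these groups did not overlap. With DMXAA the genotypes overlapped, at 70.4% to 87.0% in WT and 61.7% to 77.8% in KO libraries. Makeup thus differed between the vehicle groups, and every comparison of KO with WT below includes that difference.

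The limit on *Adarb2* fell where nuclei were few. Of nuclei that met every other limit, 1666 held no UMI of *Adarb2*, 304 held 1 and 90 held 2. The 2755 chosen nuclei included 58 with 3 UMIs, 36 with 4, 39 with 5 and 21 with 6. The other-cell markers were the strictest of the later limits. They kept 2755 of 5220 nuclei, and 2023 of the nuclei lost held *Slc17a7*.

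The *Adarb2*-positive nuclei gave 1448677 to 3027738 UMIs per library and 29597403 in all. Median UMIs per nucleus ran from 7225 to 8806 in WT and from 9442 to 12206 in KO libraries, so depth also moved with genotype. The summed level of other-cell marker lists was 4 to 16 CPM for endothelial and mural genes, 33 to 140 for microglia, 88 to 147 for oligodendrocytes, 235 to 714 for astrocytes, 336 to 585 for striatal and septal neurons, 562 to 859 for oligodendrocyte precursors, 560 to 956 for excitatory neurons and 637 to 1401 CPM for Cajal-Retzius cells. The last list holds *Reln*, *Ndnf* and *Calb2*, which interneurons also express. The lists for microglia, oligodendrocytes, their precursors and excitatory neurons each had 1 gene at 0 in every library. Nuclei with *Csf1r*, *Mog*, *Pdgfra* or *Slc17a7* were left out by choice, so the sums for these cell types are partly set by the choice. *Ifnar1* itself, the targeted gene, was at 13.4, 19.2, 17.9 and 10.8 CPM in WT vehicle and at 9.37, 9.36, 10.7 and 7.65 CPM in KO vehicle libraries. Reads of the gene thus remained in KO nuclei, and gene counts do not show which part of it is deleted. Its log2 difference between the vehicle groups was -0.44 and did not pass in edgeR (adjusted p = 0.168). In CPM, which use library totals, the means were 9.26 in KO vehicle and 15.3 in WT vehicle libraries. The exact two-sided permutation p was 0.0286, the smallest that 4 against 4 libraries allow.

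WT DMXAA replicate 3 stood apart from the other WT libraries. For 86.6% of the 3571 genes called between KO and WT vehicle libraries it lay nearer to the KO vehicle mean. This share was 5.43% to 7.28% in the other WT DMXAA libraries and 61.2% to 85.0% in KO DMXAA libraries. It was 3.16% to 4.17% in WT vehicle libraries, which give no reference because the genes were called from them. *Malat1*, an abundant nuclear RNA on chromosome 19 (5795690 to 5802672, minus strand, GRCm38), was at 21503 CPM in it, at 40252 to 69110 CPM in the other WT libraries and at 10418 to 25940 CPM in KO libraries. Several values below turned or moved by over 1.5 times without this library and are also given without it.

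To see which kinds of interneuron the nuclei held, a nucleus was said to hold a marker at 2 UMIs or more. *Vip* was held by 440 nuclei (15.97%), *Ndnf* by 437 (15.9%), *Lamp5* by 269 (9.8%), *Reln* by 1070 (38.8%), *Cnr1* by 1360 (49.4%) and *Slc17a8*, which encodes the glutamate transporter VGLUT3 of some CB1 basket cells, by 91 (3.3%). Background was read from excitatory nuclei, of which 0.04% held *Vip*, 0.22% *Ndnf*, 3.50% *Lamp5*, 5.70% *Reln*, 18.2% *Cnr1* and 0.06% *Slc17a8*. *Cck* was held by 13.9% of the *Adarb2*-positive nuclei and by 14.5% of excitatory nuclei, and was therefore not read as a marker on its own. None of 7 markers (*Vip*, *Lamp5*, *Ndnf*, *Cck*, *Npy*, *Reln* and *Slc17a8*) was held by 985 nuclei (35.8%). *Cnr1* was not among these 7.

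Some markers shared nuclei and others did not. No nucleus held both *Vip* and *Lamp5*, and 2 held both *Vip* and *Ndnf*. Of the *Ndnf* nuclei 94.5% also held *Reln*, a secreted glycoprotein, and 39.8% of the *Lamp5* nuclei held *Ndnf*. Of the *Slc17a8* nuclei 97.8% held *Cnr1* and 73.6% held *Cck*, and 90.6% of the *Cck* nuclei held *Cnr1*. *Vip* and *Cck* met in 88 nuclei. *Cnr1* and *Reln* were spread more widely. *Cnr1* was held by 70.5% of the *Vip* nuclei and 68.6% of the *Ndnf* nuclei, and *Reln* by 39.9% of the *Cck* nuclei and 15.9% of the *Vip* nuclei. *Reln* was also held by 40.4% of *Lhx6* interneurons, so it does not set *Adarb2*-positive nuclei apart. These shares depend on depth: after thinning each nucleus to a fixed 2000 UMIs, 9.4% held *Vip*, 4.9% *Ndnf*, 24.6% *Reln* and 1.0% *Lamp5*.

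Clustering of the same nuclei gave 19 clusters, and 8 of them could be named from markers. Vip-like nuclei numbered 579 (21.0%, 3 clusters), neurogliaform-like nuclei 668 (24.2%, 3 clusters), Cck basket-like nuclei 245 (8.9%, 1 cluster) and Lhx6 class-like nuclei 18 (0.65%, 1 cluster). The other 11 clusters, with 1245 nuclei (45.2%), stayed unnamed. Cluster genes were used to form the clusters and are described without a test.

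**Figure D1:**
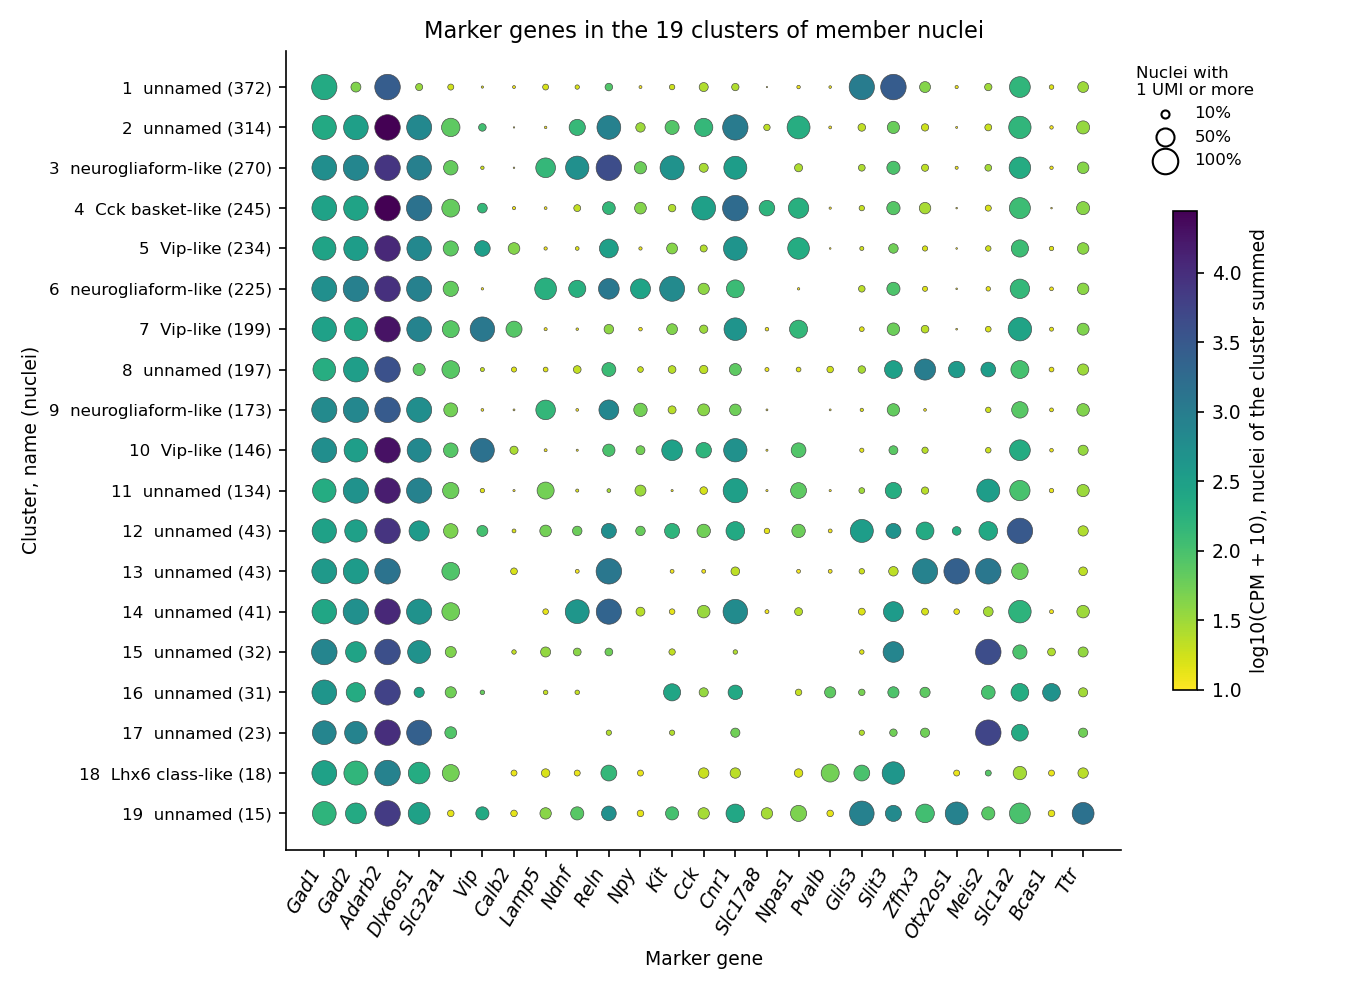
Marker genes in the 19 clusters of *Adarb2*-positive nuclei. Rows are clusters with their name and number of nuclei, columns are genes, dot size is the percent of nuclei with at least 1 UMI and colour is log10 of CPM + 10. *Vip* is highest in clusters 10 and 7 (1458 and 1147 CPM), *Ndnf* in clusters 3 and 14 (535 and 425 CPM) and *Slc17a8* in cluster 4 (153 CPM), which also holds *Vip* at 131 CPM. In clusters 1, 8, 13 and 16 from 0% to 22.8% of nuclei hold *Dlx6os1*.

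The largest cluster was one of the unnamed. Cluster 1 held 372 nuclei, led by *Glis3* (1026 CPM), *Slit3* (2888 CPM), *Chst9*, *Tanc1*, *Iqgap2* and *Stxbp6*. Only 7.80% of its nuclei held a UMI of *Dlx6os1*, 15.3% one of *Gad2* and 5.65% one of *Slc32a1* (7.68 CPM), although all of its nuclei held *Gad1* or *Gad2* by choice. Its nuclei thus met the limit mainly through *Gad1*, of which 98.4% held a UMI. Of the 10 excitatory markers 5 counted as enriched in it. Cluster 8, with 197 nuclei, was led by *Zfhx3* (974 CPM) and *Otx2os1* (366 CPM), and 22.8% of its nuclei held *Dlx6os1*. Cluster 13, with 43 nuclei, was led by *Otx2os1*, *Unc13c* and *Chrm2*, then *Foxp2* and *Meis2*, and held no *Dlx6os1*. Smaller clusters carried astrocyte genes (cluster 12, 8 of 8 markers, 43 nuclei) or genes of oligodendrocyte precursors (cluster 16, 7 of 8 markers, 31 nuclei). By contrast, cluster 2 (314 nuclei, led by *Cadps2*, *Stk32a* and *Syt6*) held *Dlx6os1* in 95.9% of nuclei. It went unnamed because its Cck basket and neurogliaform markers were equal in number, at 3 each, in the short lists used for naming. In the longer lists 10 of 17 Cck basket and 5 of 20 neurogliaform markers counted as enriched in it. The named Cck basket-like cluster 4 had 10 and 2. No doublet caller was run, and the part of mixed droplets in these clusters was not tested.

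Makeup differed between libraries. Cluster 1 took 4.23% to 14.6% of the nuclei in WT vehicle and 19.1% to 23.9% in KO vehicle libraries, and the unnamed clusters together took 31.0% to 41.7% and 46.2% to 68.0%, both without overlap. Neurogliaform-like nuclei took 23.2% to 34.6% and 13.5% to 24.5%, and Vip-like nuclei 20.1% to 29.8% and 12.4% to 21.0%, and these ranges overlapped. With DMXAA cluster 1 took 4.03% to 16.8% in WT and 13.2% to 17.96% in KO libraries, which overlapped. The shares were not tested because genes that differ between the genotypes helped to form the clusters.

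**Figure D2:**
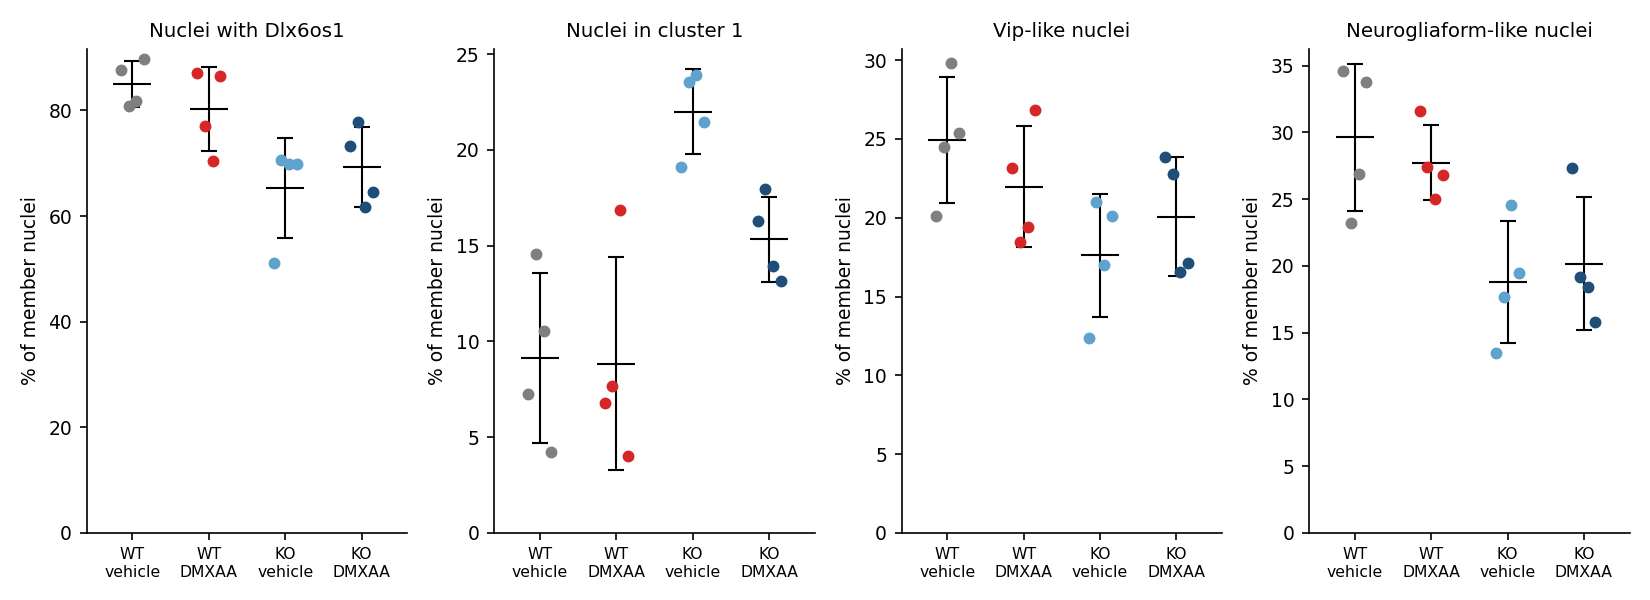
Makeup of the *Adarb2*-positive nuclei by library, in percent of nuclei, with points for libraries and bars for the mean ± SD of each group of 4. The panels give nuclei with *Dlx6os1*, nuclei in cluster 1, Vip-like nuclei and neurogliaform-like nuclei. KO vehicle libraries lie below WT vehicle libraries for *Dlx6os1* (51.1% to 70.6% against 80.8% to 89.7%).

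The *Adarb2*-positive nuclei were next set against *Lhx6* interneurons of the same libraries (768 nuclei, 24 to 84 per library), which were chosen by 2 or more UMIs of *Lhx6* and at most 2 of *Adarb2*. Of 11787 genes tested 37.2% passed the call (adjusted p below 0.05, log2 fold change beyond 0.1 in size), with 19.5% higher and 17.7% lower in *Adarb2*-positive nuclei (edgeR, paired by library). *Vip* itself was at 186 ± 109 CPM (SD, n = 16) against 0.467 CPM, a log2 difference of 8.12 (SE 0.17). Among genes at 50 CPM or more in the class where they were higher, and on the same side in every library, the next largest were *Cadps2*, a protein of dense-core vesicle release, at 682 against 19.9 CPM (log2 5.12, SE 0.25), *Syt6* at 79.4 against 2.33 CPM (5.10, SE 0.20) and *Zfhx3* at 91.5 against 2.75 CPM (5.05, SE 0.25). *Kit*, the stem cell factor receptor of neurogliaform cells, was at 122 against 4.64 CPM (4.86, SE 0.15). *Ndnf* was at 90.9 against 4.27 CPM (4.43, SE 0.14), and *Prox1*, the factor that the caudal class keeps into adulthood, at 122 ± 18.2 against 6.42 CPM (4.27, SE 0.16). By this choice each of these genes was higher in 16 of 16 libraries.

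On the lower side stood genes of the medial class. *Sox6*, a factor needed by parvalbumin and somatostatin cells, was at 31.9 against 610 CPM (log2 -4.32, SE 0.20). *Moxd1* was at 4.15 against 88.2 CPM (-4.37, SE 0.18), and *Il1rapl2*, a synapse organiser, at 129 against 1064 CPM (-3.25, SE 0.24). *Syt2*, a calcium sensor of fast release, differed by -3.01 (SE 0.29). *Mef2c* was at 417 ± 55.2 CPM in *Adarb2*-positive nuclei and at 900 ± 122 CPM in *Lhx6* interneurons (-1.12, SE 0.06), lower in 16 of 16 libraries.

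**Figure D3:**
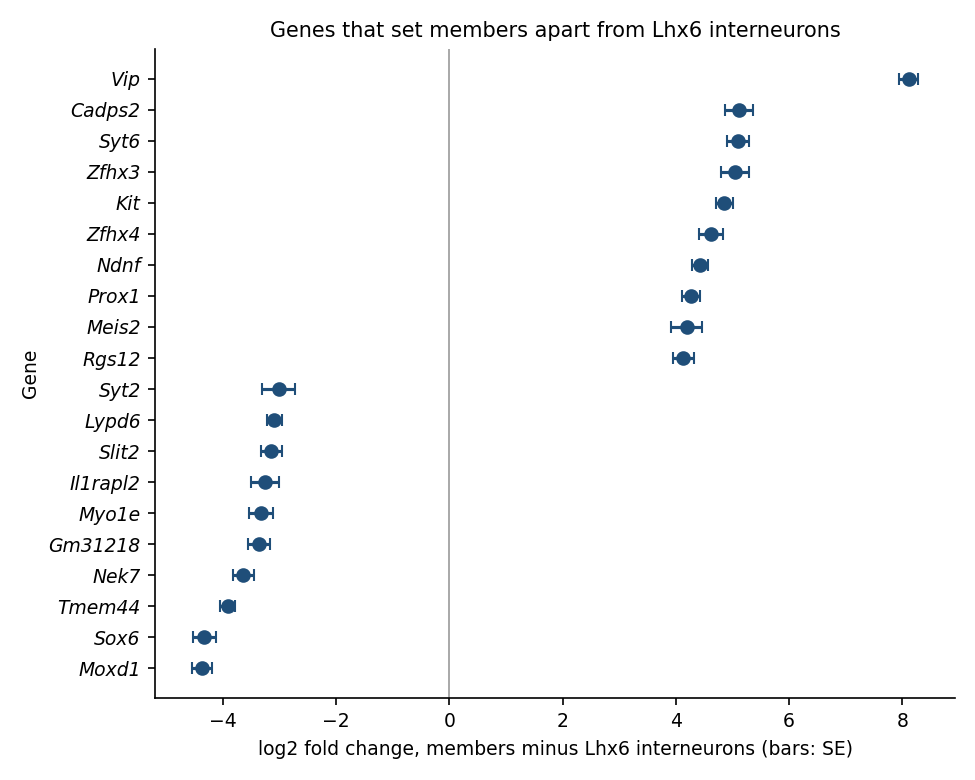
Log2 difference between *Adarb2*-positive nuclei and *Lhx6* interneurons of the same libraries for the 20 genes named by rule, with bars of ± 1 SE. *Vip* lies farthest to the right at 8.12 and *Moxd1* farthest to the left at -4.37.

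By list, 9 of 9 tested *Vip*-cell genes, 13 of 16 Cck basket genes and 13 of 18 neurogliaform genes were higher, against 1 of 20 genes of the *Lhx6* class, of which 15 were lower. Among 27 receptors known from caudal cells 19 were higher and 5 lower. They included the serotonin receptor channel *Htr3a* (log2 6.65) and the cannabinoid receptor *Cnr1* (4.08), both hallmarks of the caudal class. The neuropeptides *Tac2* (6.92) and *Penk* (3.49) were higher and *Npy* was not different by the test (-0.18, adjusted p = 0.47). Ion channels split evenly, 16 of 36 higher and 16 lower. The lower ones held *Kcnc1*, *Kcnc2*, *Kcna1* and *Scn1a*, the channels of fast spiking, and the higher ones *Kcnq5*, *Kcnip4* and *Ryr3*. Of 123 Mef2c target genes taken from inhibitory neurons of other mice 49 were higher and 49 lower, with a median log2 difference of -0.02. The shares over all genes were 19.5% higher and 17.7% lower.

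The contrast was narrower for some genes without the *Dlx6os1*-negative nuclei. In *Dlx6os1*-positive nuclei alone 35.4% of 11234 genes were called, 18.3% higher and 17.1% lower. There the difference of *Zfhx3* was 3.54 and that of *Zfhx4* 2.57, against 5.05 and 4.62 over all the nuclei. The call of neither was lost.

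The first question of the design was what DMXAA did to these nuclei in WT mice. No gene was called (0% of 11637 genes tested in edgeR, 363 at an unadjusted p under 0.05), with 1 called by DESeq2 and 0 by limma. The difference between the DMXAA effects of WT and KO mice was tested in the same fit. In KO mice and for that difference no gene was called either (0% each of 11637 genes in edgeR, with 657 and 703 at an unadjusted p under 0.05, and 0 each by DESeq2 and limma). Without WT DMXAA replicate 3, 917 genes in WT mice and 1493 in KO mice were at an unadjusted p under 0.05 in edgeR.

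*Eif2ak2*, an ISG, encodes the RNA-sensing kinase PKR. It was at 2.55, 5.47, 3.98 and 1.96 CPM in WT vehicle and at 13.9, 9.66, 7.33 and 6.12 CPM in WT DMXAA libraries, without overlap, and at 2.00 to 3.39 CPM in KO libraries. Its log2 difference in WT mice was 1.49 (SE 0.36) and did not pass (adjusted p = 0.999). *Ifi27*, a mitochondrial ISG product, was at 7.64, 5.47, 10.6 and 5.87 CPM in WT vehicle and at 22.6, 34.5, 5.86 and 14.96 CPM in WT DMXAA libraries. WT DMXAA replicate 3 lay among the vehicle libraries there. *Irf9* overlapped between the groups (7.34 to 14.6 against 6.12 to 21.2 CPM), as did *Stat2* (22.3 to 33.2 against 21.8 to 40.0 CPM).

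Of 91 listed ISGs 18 had enough UMIs to be tested. None was called, and 17 had a log2 difference above 0 in WT mice, with a median of 0.49 against 0.02 over all genes. Without WT DMXAA replicate 3 the count above 0 was again 17, 1 was called and the median was 0.70. In KO mice 10 of the 18 were above 0, with a median of 0.05. With library totals in place of TMM scaling, 15 of 18 were above 0 in WT mice and the median was 0.42 against -0.06 over all genes. A list of 11 interferon signalling genes, with receptors and kinases such as *Jak1*, *Tyk2* and *Ifnar2*, had a median of 0.07.

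The ISGs too sparse to test were counted instead. Together these 73 genes gave 192 UMIs in WT vehicle, 527 in WT DMXAA, 189 in KO vehicle and 235 in KO DMXAA nuclei. Scaled to library size this was 22.3 to 31.8 in WT vehicle, 56.7 to 114 in WT DMXAA, 20.05 to 26.1 in KO vehicle libraries and 20.7 to 30.7 in those of KO mice given DMXAA. The 4 WT DMXAA libraries lay above the other 12. *Oasl2*, an oligoadenylate synthetase-like protein, had 4 UMIs in WT vehicle and 37 in WT DMXAA nuclei, 9.41-fold after scaling (95% exact interval 3.38 to 36.3), with 21, 9, 2 and 5 UMIs in the DMXAA libraries. *Ifit1*, a binder of viral RNA, had 5 and 36 UMIs (7.32-fold, 2.86 to 23.9), and *Ddx60*, a helicase, 3 and 32 UMIs (10.9-fold, 3.39 to 55.4). In KO nuclei the 3 genes had at most 5 UMIs in either group. *Mndal* had 2 UMIs in WT vehicle and 22 in WT DMXAA nuclei (11.2-fold, 2.75 to 98.1). It was also more frequent with DMXAA in KO nuclei, with 4 UMIs in KO vehicle and 11 in KO DMXAA. *Lgals3bp* had no UMI in WT vehicle, 14 in WT DMXAA and 3 in either group of KO nuclei, and *Irf7*, a factor that amplifies interferon, 2 and 12. The intervals cover counting error only.

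**Figure D4:**
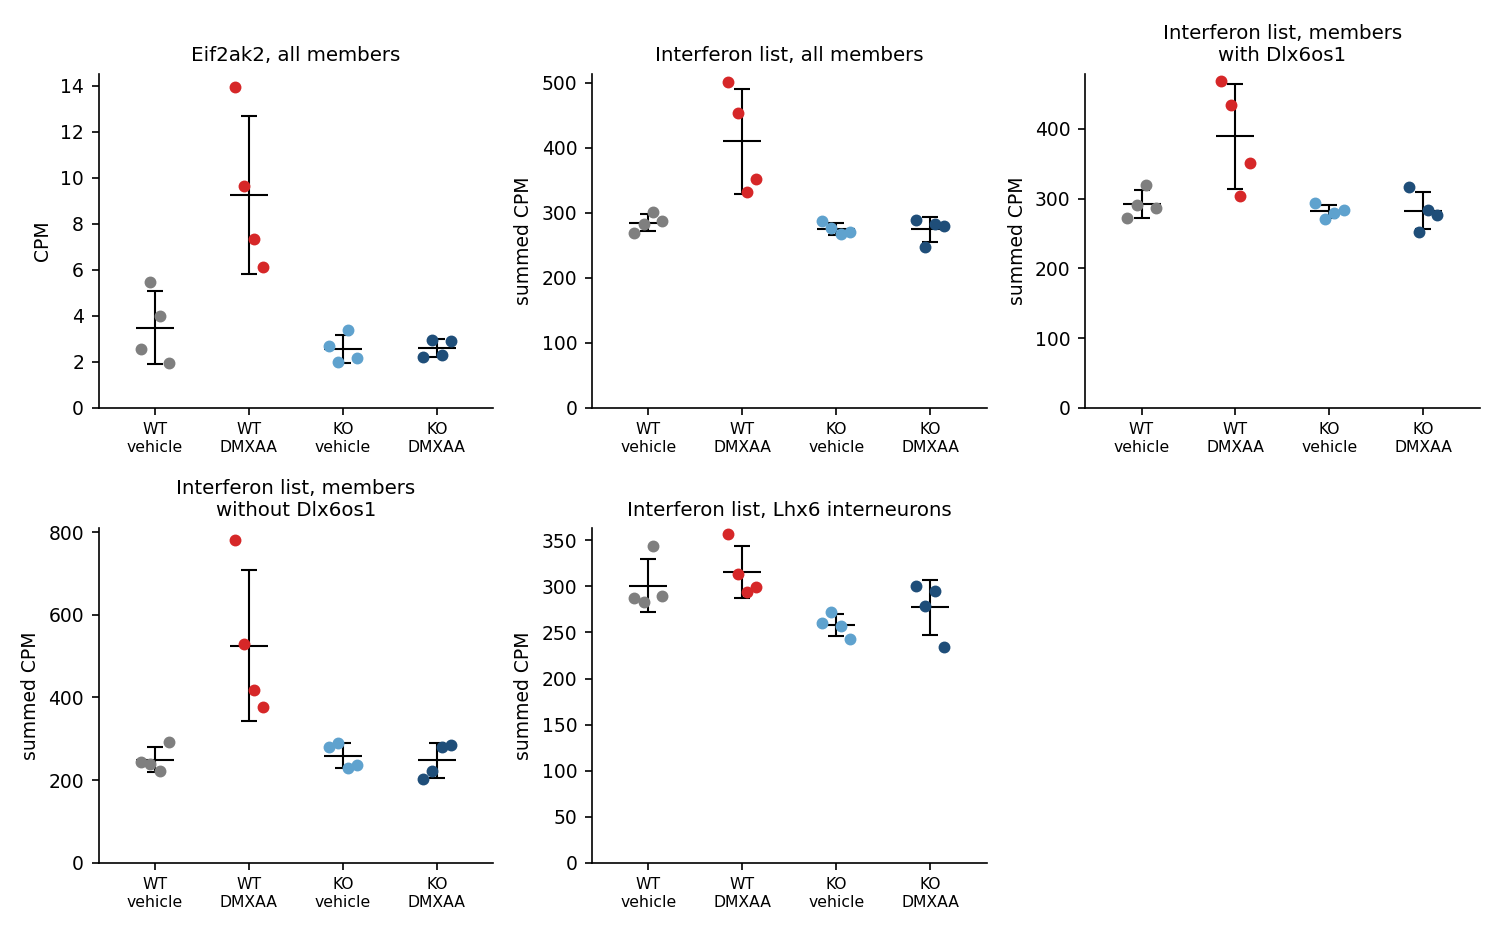
Interferon-stimulated genes by library, in CPM, with points for libraries and bars for the mean ± SD of each group of 4. Panels give *Eif2ak2* and the summed ISG list in all *Adarb2*-positive nuclei, the summed list in nuclei with and without *Dlx6os1*, and the summed list in *Lhx6* interneurons. In WT DMXAA libraries the list reaches 303 to 468 CPM in nuclei with *Dlx6os1* and 376 to 780 CPM in nuclei without it.

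The ISG list was also summed separately over nuclei with and without *Dlx6os1*. In nuclei with *Dlx6os1* it was at 272, 291, 319 and 286 CPM in WT vehicle and at 468, 434, 303 and 350 CPM in WT DMXAA libraries. These groups overlapped, through WT DMXAA replicate 3. In nuclei without *Dlx6os1* it was at 244, 238, 223 and 292 CPM in WT vehicle and at 780, 529, 417 and 376 CPM in WT DMXAA libraries, without overlap. In KO mice the nuclei without *Dlx6os1* held 228 to 290 CPM with vehicle and 202 to 285 CPM with DMXAA. The difference between the sets, without minus with *Dlx6os1*, was 311, 95.3, 113 and 25.3 CPM in WT DMXAA and -27.6, -52.1, -95.9 and 5.50 CPM in WT vehicle libraries. The means were 136 CPM ± 123 (SD, n = 4) and -42.5 CPM ± 42.7. Without WT DMXAA replicate 1 the first was 77.9 CPM, and without WT vehicle replicate 3 the second was -24.7 CPM. The groups did not overlap (exact two-sided permutation p = 0.0286, the smallest that 4 against 4 libraries allow), and with each library left out the exact p was 0.0286 to 0.0571. In KO mice the groups overlapped (exact p = 0.771).

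Other cell types of the same libraries give the range in which these values sit. The summed ISG list was at 269 to 302 CPM in WT vehicle, 333 to 502 in WT DMXAA, 267 to 288 in KO vehicle and, with DMXAA in KO mice, 247 to 289 CPM in *Adarb2*-positive nuclei. *Lhx6* interneurons held 283 to 343, 293 to 357, 242 to 272 and 234 to 301 CPM in the same order, so their WT groups overlapped. Excitatory nuclei held 287 to 352 CPM in WT vehicle and 369 to 868 CPM in WT DMXAA libraries. Microglia held 2179 to 2783 and 5666 to 16481 CPM. *Adar* makes up a large part of each summed ISG value in *Adarb2*-positive nuclei. It gave 751 of 6583346 UMIs in WT vehicle and 747 of 6473663 in WT DMXAA nuclei. In KO nuclei it gave 1142 of 7633628 UMIs with vehicle and 1200 of 8906766 with DMXAA. WT DMXAA replicates 1 to 4 held 159, 144, 286 and 158 UMIs of it. The sums therefore do not show how the rest of the list differed between genotypes. The microglial marker list in the *Adarb2*-positive nuclei summed to 72 to 115 CPM in WT vehicle, 38 to 140 in WT DMXAA, 33 to 42 in KO vehicle libraries and 48 to 66 CPM in those of KO mice given DMXAA. The part of RNA from other cells in the ISG values was not tested. The DMXAA effect of *Adarb2*-positive nuclei differed from that of *Lhx6* interneurons for no gene in WT or KO mice (0% each of 11787 genes in edgeR, 526 and 486 at an unadjusted p under 0.05, and 0 each by limma).

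Genes outside the interferon system that ranked next in WT mice did not pass either. *Apod*, a lipid carrier, was at 8.91, 11.6, 8.63 and 5.38 CPM in WT vehicle and at 24.5, 53.8, 9.28 and 17.7 CPM in WT DMXAA libraries (log2 1.65, adjusted p = 0.999, or 1.05 without WT DMXAA replicate 2). *Egr1*, an activity-induced factor, was at 25.5, 13.7, 26.5 and 15.2 CPM and at 11.3, 5.52, 5.37 and 3.40 CPM (-1.57, adjusted p = 0.999). The *Egr1* groups did not overlap. Of 12 immediate early genes 1 had a log2 difference above 0 in WT mice (median -0.53) and 9 in KO mice (median 0.38). Of 6 stress genes tested 2 were above 0 in WT mice (median -0.29, or -0.08 without WT DMXAA replicate 3). The other genes with the smallest p in WT mice were *Atf7ip* (0.41), *Gm46440* (-1.59), *Mknk2* (-1.55), *Slc15a2* (-1.48) and the peptide gene *Tac2* (-1.57), each at an adjusted p of 0.999. All 8 tested neuropeptides had a difference below 0 in WT mice, with a median of -0.63. Without WT DMXAA replicate 3 the median was -0.36 and 1 lay above 0.

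*Mef2c*, a factor of neuronal and interneuron maturation and the study's gene of interest, was at 440 ± 13.5 CPM (SD, n = 4) in WT vehicle, 424 ± 33.8 in WT DMXAA, 377 ± 47.4 in KO vehicle and 426 ± 93.1 CPM in KO DMXAA libraries. The 123 Mef2c target genes had a median log2 difference of 0.13 with DMXAA in WT mice, with 93 above 0. Without WT DMXAA replicate 3 the direction turned, to a median of -0.06 with 49 above 0, and with library totals the median was 0.04. The excitatory marker list summed to 854 CPM in that library and to 560 to 595 CPM in the other WT DMXAA libraries, and its part in the target values was not tested. The study named 4 further genes among those most lowered by DMXAA in excitatory neurons of WT mice, a class left out here. Summed over *Adarb2*-positive nuclei of WT mice, *Pdzrn3* differed by 0.49, *Dpp10* by 0.16, *Gria4* by 0.16 and *Rgs6* by -0.26 with DMXAA. None of the 4 passed. The values of *Dpp10*, *Gria4* and *Rgs6* moved by over 1.5 times with 1 library left out. *Dpp10* ran from 0.03 (without WT DMXAA replicate 3) to 0.30 (without WT vehicle replicate 1), *Gria4* from 0.06 (without WT DMXAA replicate 3) to 0.22, and *Rgs6* from -0.46 (without WT DMXAA replicate 3) to -0.12 (without WT DMXAA replicate 2). In KO mice the smallest p values belonged to *Tspan17* (1.31), *Frmd3* (0.36), *Nr1h2* (1.34), *Has1* (1.66) and *Atp8b2* (0.51) above 0 and to *Vmn2r29* (-1.19), *Stum* (-1.21), *Vwa3b* (-1.22), *Zfp382* (-1.03) and *Daxx* (-1.37) below it, each at an adjusted p of 0.804. Without WT DMXAA replicate 3, which enters the fit only through the shared spread and scaling, 4 genes passed in KO mice. *Slc32a1* (0.84), *Nap1l5* (0.79) and *Rtl1* (1.19) rose and *Stum* (-1.20) fell there.

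Among the contrasts of treatment and genotype, the one with the most calls was KO against WT with vehicle. Of 11637 genes 30.7% were called (3571 genes), 15.2% higher and 15.5% lower in KO libraries. The balance depended on the scaling. With library totals in place of TMM scaling 4232 genes were called (36.4%), 871 higher (7.48%) and 3361 lower (28.9%), and the median of all genes moved from -0.03 to -0.29 on the log2 scale. Without KO vehicle replicate 2 the count was 2291. TMM factors were 1.07 to 1.14 in WT libraries other than WT DMXAA replicate 3 (0.903) and 0.888 to 0.993 in KO libraries. Age, cohort, depth and makeup cannot be told apart from the loss of *Ifnar1* in anything that follows.

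Neuropeptides were lower in KO vehicle libraries. Of 8 tested, 6 were called lower and none higher, with a median log2 difference of -1.28. Over all genes 15.5% were called lower and 15.2% higher. *Npy*, the inhibitory peptide of neurogliaform cells, was at 49.7, 43.1, 72.3 and 120 CPM in WT vehicle and at 18.7, 11.4, 18.4 and 16.9 CPM in KO vehicle libraries (-1.86, SE 0.44, adjusted p = 0.00735). *Cck* was at 114, 97.8, 130 and 197 CPM and at 26.8, 48.1, 39.2 and 59.6 CPM (-1.40, SE 0.33, adjusted p = 0.0069). *Vip* was at 362, 179, 348 and 387 CPM and at 38.4, 131, 96.4 and 116 CPM (-1.49, SE 0.45, adjusted p = 0.0231). None of the 3 genes overlapped between the groups. Genes without overlap were not counted over all genes, of which 5046 of 11637 were at an unadjusted p under 0.05 in edgeR. The call of *Vip* was lost without WT vehicle replicate 4 (adjusted p = 0.0567), without KO vehicle replicate 1 (0.0508) or without the filter on low counts (0.0577).

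*Tac2*, which encodes neurokinin B, was at 28.6, 29.4, 39.1 and 68.5 CPM in WT vehicle and at 9.81, 18.7, 10.2 and 13.7 CPM in KO vehicle libraries (log2 -1.46, SE 0.39, adjusted p = 0.012). *Cxcl14*, a chemokine of caudal cells, differed by -1.16 (adjusted p = 0.0204) and *Penk*, the enkephalin precursor, by -1.02 (adjusted p = 0.0212). In *Dlx6os1*-positive nuclei alone, where 26.5% of 10705 genes were called (12.9% higher and 13.6% lower), 4 of the 6 stayed called. *Npy* differed by -1.65 there, *Vip* by -1.22, *Cck* by -1.10 and *Tac2* by -1.09, while *Cxcl14* (adjusted p = 0.0665) and *Penk* (adjusted p = 0.112) were not called. The call of *Cxcl14* was also lost without WT vehicle replicate 4 or KO vehicle replicates 1 or 2 (adjusted p up to 0.0699), and that of *Penk* without WT vehicle replicate 3 or KO vehicle replicate 1 (up to 0.0719). WT DMXAA replicate 3, with *Npy* at 11.2 and *Cck* at 34.2 CPM, lay below the other WT libraries and at the level of the KO vehicle libraries for both genes.

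**Figure D5:**
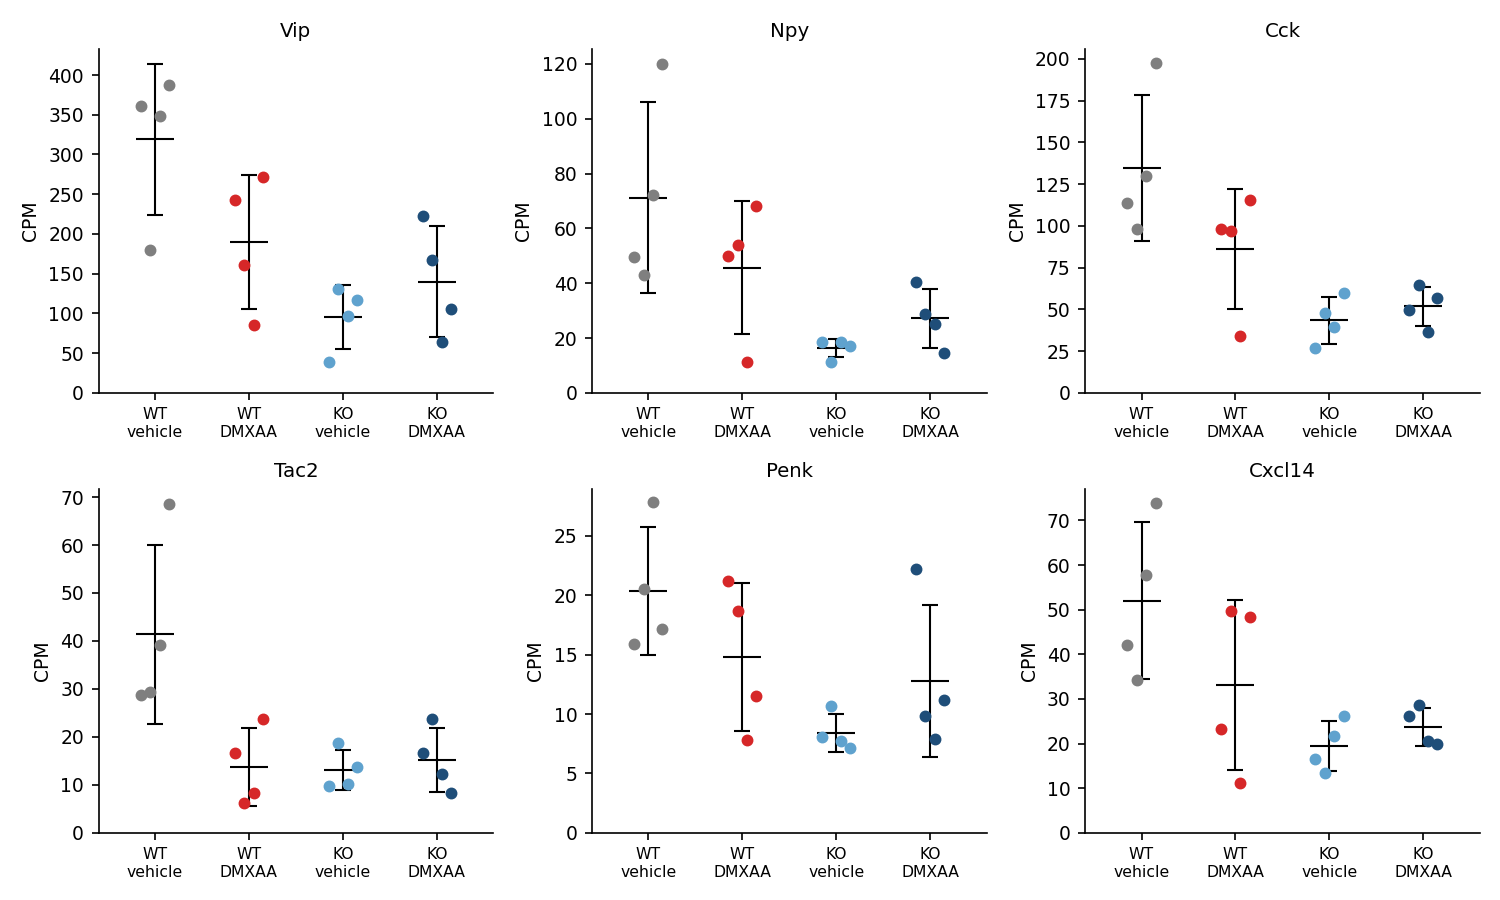
Neuropeptide genes in the *Adarb2*-positive nuclei by library, in CPM, with points for libraries and bars for the mean ± SD of each group of 4. *Npy*, *Vip* and *Cck* lie lower in KO vehicle (11.4 to 18.7, 38.4 to 131 and 26.8 to 59.6 CPM) than in WT vehicle libraries.

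Subtype genes followed in part. *Lamp5* differed by -1.20 on the log2 scale (adjusted p = 0.0163), *Kit* by -0.90 (0.0242) and *Id2*, an inhibitor of DNA-binding factors, by -1.44. *Prox1* was higher by 0.48 (adjusted p = 0.0208) and *Zfhx3* by 2.54 (adjusted p = 0.0477). *Zfhx3* was uneven, at 392, 88.9, 23.2 and 45.3 CPM in KO vehicle libraries against 20.5 to 44.5 CPM in WT vehicle libraries, so the groups overlapped. Cluster 8, led by *Zfhx3*, took 25.3% of the nuclei of KO vehicle replicate 1 and 1.26% to 4.70% in the other KO vehicle libraries. The call of *Zfhx3* was lost in 18 of 24 alternatives, 12 of them with 1 library left out (without KO vehicle replicate 1 the difference was 1.13 and the adjusted p 0.255). The call of *Prox1* was lost with library totals (adjusted p = 0.222) and without WT vehicle replicate 1 or KO vehicle replicate 2 (up to 0.0870). That of *Kit* was lost without WT vehicle replicates 1 or 4 or KO vehicle replicates 2 or 4 (up to 0.0772), and that of *Lamp5* without WT vehicle replicate 4 (0.0516). In *Dlx6os1*-positive nuclei *Prox1* (0.30, adjusted p = 0.176), *Kit* (-0.55, adjusted p = 0.170) and *Zfhx3* (1.57, adjusted p = 0.103) were not called and *Lamp5* was (-0.95, adjusted p = 0.0387). *Cnr1* and *Reln* did not pass in the full set (adjusted p = 0.134 and 0.907).

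Receptor and channel genes went the other way. Of 36 ion channel genes 21 were higher in KO vehicle libraries and none was lower, against 15.2% and 15.5% of all genes. Of 20 glutamate receptor genes 11 were higher and none lower, and of 25 GABA genes 7 were higher and 1 was lower. *Grin2a*, a subunit of the NMDA receptor, was at 1613 ± 321 CPM in WT vehicle and 2708 ± 215 CPM in KO vehicle libraries (log2 1.01, adjusted p = 0.0029), and *Ryr3*, a calcium release channel, at 168 ± 34.7 and 300.4 ± 73.2 CPM (1.11, adjusted p = 0.0042). With library totals in place of TMM scaling 14 channel genes were higher and 5 lower, 9 glutamate receptor genes higher and 1 lower, and 3 GABA genes higher and 7 lower. Over all genes 7.48% were higher and 28.9% lower at that scaling, so the GABA genes, with 7 of 25 lower, lay near the background. In *Dlx6os1*-positive nuclei alone 19 channel genes were higher and 1 lower, and 12 glutamate receptor genes were higher and none lower. Over all genes 12.9% were higher and 13.6% lower in those nuclei.

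Markers of other neurons moved with these lists. The 10 excitatory markers summed to 585 to 786 CPM in WT vehicle and 750 to 956 CPM in KO vehicle libraries. Of these markers 1 was at 0 in every library, and nuclei with *Slc17a7* were left out by choice. Of the 7 excitatory markers tested 2 were higher and none lower, with a median log2 difference of 0.48, beside 0.46 for the channel genes and 0.44 for the glutamate receptor genes. Of 16 tested *Lhx6*-class markers 4 were higher and 1 lower, with a median of 0.46. Over all genes 15.2% were higher and 15.5% lower, with a median of -0.03. The part of RNA from other neurons in the receptor, channel and Mef2c target values was not tested.

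Of the 123 Mef2c targets 69 were higher in KO vehicle libraries and 1 was lower, or 51 and 3 with library totals. Among all genes 15.2% were higher and 15.5% lower, or 7.48% and 28.9% with library totals. *Mef2c* itself did not pass (0.03, adjusted p = 0.871). *Pdzrn3* was at 245 ± 42.8 CPM in WT vehicle and 328 ± 37.8 CPM in KO vehicle libraries (0.68, adjusted p = 0.0103) and *Dpp10* at 1479 ± 290 and 1727 ± 219 CPM (0.48, adjusted p = 0.0393). The call of *Dpp10* was lost with library totals (adjusted p = 0.209) and without WT vehicle replicates 2, 3 or 4 or KO vehicle replicates 1, 2 or 4 (0.0642 to 0.128).

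Of 12 immediate early genes 4 were lower (*Fos*, *Btg2*, *Junb* and *Egr1*) and none higher, against 15.5% of all genes lower. The call of *Fos* was lost without WT vehicle replicate 3 (adjusted p = 0.0566). *Btg2* was at 14.0, 15.7, 17.3 and 9.30 CPM in WT vehicle and at 3.57, 0, 2.42 and 4.37 CPM in KO vehicle libraries (-2.08, SE 0.45, adjusted p = 0.0037). Stress genes moved with them. The 10 listed summed to 304 to 421 CPM in WT vehicle and 142 to 224 CPM in KO vehicle libraries. Of the 6 tested 3 were lower and none was above 0, with a median of -0.67. They were the chaperones *Hspa8* (-0.84) and *Hsp90ab1* (-1.17) and the stress factor *Ddit3* (-1.18), whose call was lost without WT vehicle replicates 1 or 3 or KO vehicle replicates 1, 2 or 4 (adjusted p = 0.0728 to 0.0910). The part of stress or handling in the immediate early genes was not tested.

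Between the vehicle groups 1 of 18 ISGs was higher (*Adar*, the RNA-editing enzyme, 0.66) and 1 lower (*Ly6e*, -1.26). Among all genes tested 15.2% were higher and 15.5% lower. The call of *Ly6e* was lost without WT vehicle replicate 2 or KO vehicle replicates 1 or 2 (adjusted p = 0.0604 to 0.0626).

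Single genes with the widest difference between the vehicle groups were mostly sparse. *Gm15965*, a noncoding RNA on chromosome 16 (90983907 to 90987237, plus strand, GRCm38), was at 22.9, 32.8, 21.2 and 21.0 CPM in WT vehicle and at 1.78, 1.34, 2.91 and 1.64 CPM in KO vehicle libraries (log2 -3.35, SE 0.54, adjusted p = 0.00195). *Txndc17*, a thioredoxin-like protein, differed by -3.09 (adjusted p = 0.00195). *Col8a1*, a collagen, was at 0.637, 1.37, 3.98 and 0.979 CPM and at 12.5, 30.1, 9.68 and 23.5 CPM (3.67, SE 0.97, adjusted p = 0.0124). *Taco1*, an activator of mitochondrial translation, was at 20.4, 6.84, 13.9 and 16.6 CPM and at 69.2, 159, 41.6 and 47.0 CPM (2.68, SE 0.62, adjusted p = 0.00731). WT DMXAA replicate 3 again lay with the KO libraries for *Gm15965* (3.91 CPM) and *Taco1* (48.4 CPM).

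The number of *Adarb2*-positive nuclei was compared last. They made up 1.99% ± 0.190 of nuclei within the limits in WT vehicle and 1.96% ± 0.164 in WT DMXAA libraries. In KO mice they made up 2.10% ± 0.377 with vehicle and 2.47% ± 0.412 with DMXAA. The exact permutation p was 0.886 for DMXAA in WT, 0.257 for DMXAA in KO and 0.714 for KO against WT with vehicle, and 0.886, 0.514 and 0.857 after Benjamini-Hochberg adjustment over 6 comparisons. A second share was taken among the 7695 nuclei within the limits that had 2 or more UMIs of *Gad1* and *Gad2* together. These nuclei also held none of *Slc17a7*, *Mog*, *Pdgfra* or *Csf1r*. The share was 36.7% ± 2.86, 32.9% ± 4.03, 34.6% ± 3.24 and 39.4% ± 4.35 in the same order of groups, and no pair passed (adjusted p = 0.514, 0.514 and 0.686). Depth per nucleus differed between the genotypes, as given above, and its part in these shares was not tested.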

How the data were processed

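Per the labels, hippocampal nuclei were run on 10x Genomics 3' v3.1 chemistry. The deposited matrices hold raw UMI counts per gene and barcode, made by the authors on the mm10 build. The submitters' processing notes name Cell Ranger 3.1.0 and Seurat 3.0, and the file headers name a later Cell Ranger. The members and gene lists were chosen with earlier results of these data known.

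UMI counts of the chosen nuclei were summed per library and tested with edgeR 4.0.16 (TMM, filterByExpr, robust quasi-likelihood F test, two-sided) in R 4.3.3, with all 16 libraries and 4 groups in 1 fit. P-values were adjusted by Benjamini-Hochberg over all genes tested, and calls needed an adjusted p below 0.05 and a log2 fold change beyond 0.1 in size. Genes used in the choice were not tested. The comparison with *Lhx6* interneurons had the library as a term. DESeq2 1.42.0 and limma 3.58.1 served as alternatives. CPM values use each library's total for the nuclei summed. With 1448677 to 3027738 UMIs per library, 1 UMI is worth under 1 CPM. Exact permutation tests were run over libraries.

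Named genes were, per comparison, the 5 called genes with the largest difference in each direction whose groups did not overlap, or the 5 with the smallest p where none was called. Against *Lhx6* interneurons they were the 10 largest in each direction at 50 CPM or more and on the same side in every library. Subtype markers, *Ifnar1*, *Mef2c*, *Malat1* and leading or called genes of each list were also named. Some genes that these rules name are not reported here. Clusters came from 2000 variable genes, 20 principal components, 15 neighbours and a resolution of 0.5 (leidenalg 0.10.2, Python 3.11.15). They were named from 3 or more enriched markers and *Dlx6os1* in over 50% of nuclei, limits set after the clusters had been seen. Scripts were tested on simulated data.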

Additional observations from a re-analysis of the deposited data

Results flagged for a closer look

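In groups of 4 libraries, a library was picked out where its gap to the nearest other library took up more of the group's range than the 95% critical value of Dixon's test. Chance picks about 1 in 20 groups, and 4 of 112 groups were picked. *Dlx6os1* was held by 51.1% of the nuclei of KO vehicle replicate 1, against 69.8% to 70.6% in the other KO vehicle libraries. *Irf9* was at 14.6 CPM in WT vehicle replicate 3, against 7.34 to 8.28 CPM. *Adar* was at 141 CPM in KO DMXAA replicate 3, against 131 to 132 CPM. *Gm15965* was at 32.8 CPM in WT vehicle replicate 2, against 21.0 to 22.9 CPM.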

How the results depend on the processing

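The count of genes called for DMXAA in WT mice was 0 and became 1 with DESeq2, 1 without the filter on low counts and 0 to 1 with each library left out. For DMXAA in KO mice it was 0 to 4 with each library left out. The 4 came without WT DMXAA replicate 3 and were *Slc32a1*, *Nap1l5* and *Rtl1*, higher, and *Stum*, lower. For KO against WT with vehicle it was 2291 (without KO vehicle replicate 2) to 4640 (without WT DMXAA replicate 3), against 3571. Of the difference between *Adarb2*-positive nuclei and *Lhx6* interneurons in the DMXAA effect, 4 genes passed in WT mice (*Gulp1*, *6530403H02Rik*, *Slc17a8* and *Myo5b*) and 1 in KO mice (*Prdm16*) without the filter on low counts, against 0.

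The difference in the share of nuclei within the limits, KO minus WT with vehicle, was 0.112 percentage points and turned to -0.0984 with a stricter rule, -0.0783 with at most 4000 genes and -0.350 in *Dlx6os1*-positive nuclei. The DMXAA difference in WT mice was -0.0225 and turned to 0.0728 with 1 UMI of *Slc17a7* allowed. With each library left out these differences ran from -0.0728 (without KO vehicle replicate 1) to 0.205 and from -0.0862 to 0.0574 (without WT vehicle replicate 4). None of these shares passed its test. The sign changed for a pair of genes that were not called. *Mef2c* in KO against WT vehicle libraries went from 0.03 to -0.23 with library totals and ran from -0.0555 (without KO vehicle replicate 3) to 0.0760 with each library left out. *Npy* against *Lhx6* interneurons went from -0.18 to 0.0435 with a stricter rule and 0.138 in *Dlx6os1*-positive nuclei, and ran from -0.265 to 0.00912 (without KO vehicle replicate 3) with each library left out. The median of the Mef2c targets with DMXAA in WT mice turned without WT DMXAA replicate 3, as given above. The other gene fold changes that were recomputed kept their sign, and 15 of the 74 calls among them were lost under 1 or more alternatives. Library totals without a TMM factor, limma and *Dlx6os1*-positive nuclei alone were chosen after seeing the data. No paired analysis was possible because replicate numbers do not pair libraries across groups. The cause of these changes was not tested.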

Other observations

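Beyond the lists of interneuron classes, transcription factors also separated *Adarb2*-positive nuclei from *Lhx6* interneurons of the same libraries. Of 35 tested 21 were higher and 10 lower (edgeR, 19.5% and 17.7% of all genes tested). *Nfib*, a factor of neuronal maturation, was at 758 ± 91.1 CPM (SD, n = 16) against 197 CPM (log2 2.04, SE 0.18), and *Nfix* at 85.3 ± 21.2 against 14.3 CPM (2.57, SE 0.11), each higher in 16 of 16 libraries. *Satb1*, which medial interneurons need to mature, was at 39.3 ± 11.2 against 292 CPM (-2.91, SE 0.08), lower in 16 of 16. *Nr2f2*, known from the caudal eminence, was at 39.6 ± 12.6 against 13.2 CPM (1.52, SE 0.14).

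Receptor subunits differed within each family. The GABA-A receptor subunits *Gabra2* (360 ± 55.9 against 125 CPM, log2 1.55) and *Gabra5* (63.1 ± 10.1 against 25.9 CPM, 1.34) were higher in *Adarb2*-positive nuclei, and *Gabrd* (15.2 ± 6.18 against 32.7 CPM, -1.12) was lower. Among glutamate receptors the AMPA subunits *Gria3* (373 ± 50.1 against 1068 CPM, -1.52) and *Gria1* (1926 ± 603 against 4553 CPM, -1.28) were lower, and *Grik4*, a kainate subunit, was higher (174 ± 57.9 against 75.7 CPM, 1.22). Of 15 clock genes 9 were higher and none lower, among them *Per3* (32.8 ± 7.39 against 14.5 CPM, 1.21). Of 10 noncoding and imprinted RNAs kept in the nucleus or abundant there 8 were lower, such as *Meg3* (8284 ± 1948 against 10419 CPM, -0.37), and *Miat* (126 ± 13.8 against 66.6 CPM, 0.90) and *Neat1* (0.96) were higher. The shares over all genes tested were 19.5% higher and 17.7% lower.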
